A study of Homo sapiens with 4 samples.

Results

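The AFAP1 family is a group of actin filament associated adaptor proteins. It is described here together with SRC, a tyrosine kinase that AFAP1 binds. The 4 genes AFAP1, AFAP1L1, AFAP1L2 and SRC were taken by name from a count table of 61541 genes, and all 4 were found. They were chosen by the measured fall of AFAP1L2 in cadmium-resistant cells. The comparison of cadmium with control is therefore given for these genes as a description, with no test. RNA was sequenced from MDA-MB-231, a widely used line derived from a human breast cancer. The cadmium group (n = 2 libraries) had been passaged long term in medium with cadmium sulfate, raised to a final 10 µM. The study calls these cells cadmium-resistant. The control group (n = 2) was the same line with no treatment, described by the study as matching controls. Each group is a passaged population of 1 line, and neither the labels nor the methods name clones. The sample titles call the controls biological replicates and the cadmium samples only replicates. Where nothing says that libraries came from separate cultures, p-values measure only the spread between these libraries. Control libraries carry the numbers 2 and 3 in the count table, and the cadmium libraries carry 1 and 2.

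AFAP1 itself cross-links actin filaments. Proteins of the family carry pleckstrin homology domains, and AFAP1 has short motifs that the SH2 and SH3 domains of SRC can bind. AFAP1 can activate SRC and connects it to stress fibres and to podosomes. AFAP1L1 was described as a partner of cortactin at invasive protrusions. AFAP1L2, also called XB130, is phosphorylated by tyrosine kinases and passes the signal to PI3K and AKT, pathways that drive growth and migration.

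The libraries held between 51934729 and 61916007 reads assigned to genes. Of the 12924 genes whose normalized counts averaged 100 or more, 14.2% differed more than 2-fold between the controls, against 0.317% between the cadmium pair. Control values must therefore be read one by one. The mesenchymal markers VIM and CD44 were abundant in each library, with normalized counts of at least 39062 and 20725. So were the epithelial and luminal keratin genes KRT8, KRT18 and KRT19, with at least 48503, 21666 and 15667. The epithelial genes ESRP1 and GRHL2 had at most 96.5 and 34.6. The receptor genes ESR1 and PGR had at most 18.9 and 29.6, in a line known as triple-negative. The third receptor gene, ERBB2, had 6773 and 5803 in the controls and 4584 and 5065 in the cadmium libraries. The epithelial genes EPCAM and CDH1 differed between the controls, at 2410 against 662 for EPCAM and 107 against 615 for CDH1. Of 16 epithelial, luminal and mesenchymal markers, 0 were called different in cadmium by the test described further on.

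AFAP1L2 was markedly lower in cadmium-resistant cells. AFAP1L2 (ENSG00000169129, hg38 chromosome 10, 114294824 to 114404756, minus strand) had raw counts of 3819 (control 2) and 3306 (control 3) against 1087 (cadmium 1) and 1073 (cadmium 2). Normalized counts, which divide by a library size factor, were 3614 and 3515 in the controls and 1082 and 1059 in the cadmium libraries. The groups did not overlap, and both controls lay far above both cadmium libraries. The control mean was 3564 ± 69.6 (SD, n = 2) and the cadmium mean 1071 ± 15.9 (SD, n = 2), which is 3.33-fold lower. The log2 fold change was -1.74 (SE 0.25). Each of the 4 pairings of a control with a cadmium library gave a ratio between 3.25 and 3.41. The controls differed by only 1.03-fold for AFAP1L2, and 5.72% of the 12924 genes had controls closer to each other. In bulk RNA, fewer cells with the transcript and less of it per cell cannot be told apart.

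**Figure D1:**
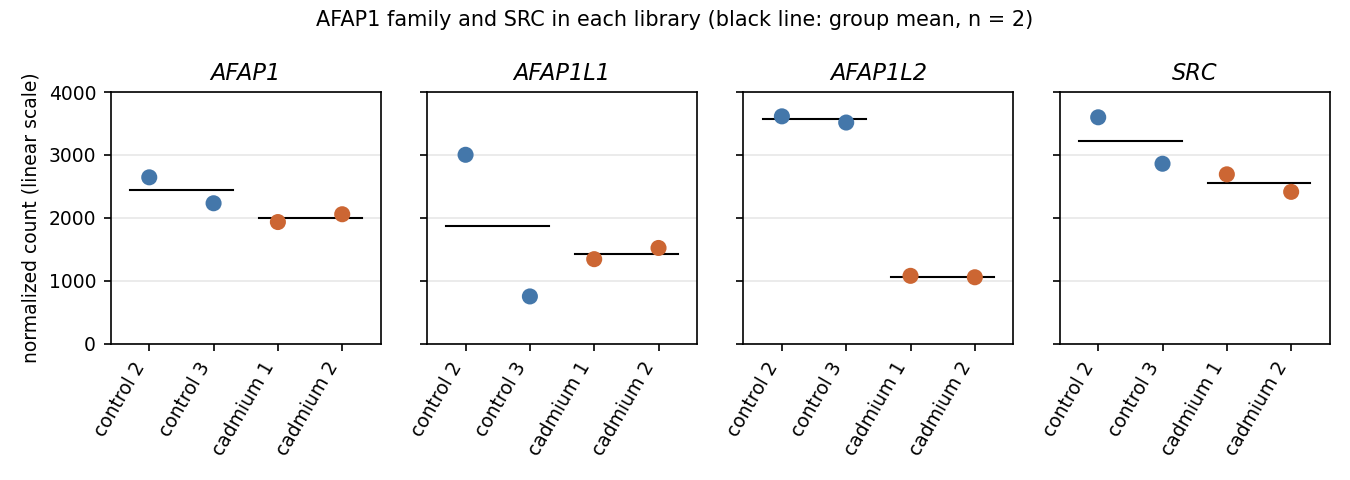
Normalized counts (linear axis from 0) of AFAP1, AFAP1L1, AFAP1L2 and SRC in each of the 4 libraries, with control in blue and cadmium in orange; black lines are group means (n = 2). The AFAP1L2 controls sit at 3614 and 3515, above 1082 and 1059 in cadmium, while the AFAP1L1 controls lie on either side of the cadmium libraries.

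AFAP1L1 showed no such pattern. AFAP1L1 (ENSG00000157510, chromosome 5, 149271859 to 149343637, plus strand) had normalized counts of 3003 (control 2) and 755 (control 3), beside 1347 (cadmium 1) and 1524 (cadmium 2). Both cadmium libraries lay between the controls, which differed by 3.97-fold. A difference between the controls smaller than this was seen for 96.2% of the 12924 genes. The control mean was 1879 ± 1590 (SD, n = 2) and the cadmium mean 1435 ± 126 (SD, n = 2), and the log2 fold change was -0.39 (SE 0.56). Its sign was set by which control was used, at 0.92 without control 2 and -1.08 without control 3. Epithelial and luminal markers did not share a direction between the controls. EPCAM was likewise highest in control 2, at 2410 against 662 in control 3. CDH1 and KRT19 were instead higher in control 3, at 615 and 24560 against 107 and 15667 in control 2. Any link of these genes to the AFAP1L1 difference was not tested.

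The sequence before the start of AFAP1L2 is shown because the study concerns MTF-1, the factor that binds metal response elements. AFAP1L1 is shown beside it as the paralog with the other pattern. In the study, MTF-1 sites gained or lost in cadmium lay mainly away from gene starts. Gained sites were enriched for FOS/JUN (AP-1) motifs and lost sites for forkhead motifs, and no MTF-1 motif was enriched. RefSeq promoter windows (GRCh38.p14) were given for 3 of the 4 members, with 2 starts for AFAP1, and none was given for SRC. The 250 bases before each start were searched on both strands for the metal response element cores TGCACNC and TGCGCNC, the AP-1 site TGANTCA and the forkhead site TGTTTAC. AFAP1L2 held 1 match, to TGCGCNC, that begins 217 bases before the start. The windows of AFAP1L1 and of both AFAP1 starts held no match. Of 35116 RefSeq windows of that length, 16.8% held TGCGCNC, 9.87% TGCACNC, 6.57% TGANTCA and 2.98% TGTTTAC, and the AFAP1L2 window is rich in G and C at 81.6% against a median of 58.0% over those windows. The first line below gives 30 bases around the match, at chr10:114404701-114404730 on the minus strand, inside the first exon of a longer AFAP1L2 transcript of the annotation used for counting. The second gives the window of AFAP1L1 at chr5:149271609-149271858 on the plus strand. Capitals mark the match.
AFAP1L2: cggggccgcggGCGCGCAccgactcaagag
AFAP1L1: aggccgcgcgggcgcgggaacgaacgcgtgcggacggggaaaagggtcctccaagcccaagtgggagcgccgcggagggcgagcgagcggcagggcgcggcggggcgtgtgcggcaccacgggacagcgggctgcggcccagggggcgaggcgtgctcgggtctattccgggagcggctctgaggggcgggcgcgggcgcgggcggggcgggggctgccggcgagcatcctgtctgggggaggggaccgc

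AFAP1, the founding member, was slightly lower in cadmium. AFAP1 (ENSG00000196526, chromosome 4, 7758714 to 7939926, minus strand) had normalized counts of 2646 and 2234 in the controls and 1936 and 2060 in the cadmium libraries. The ranges did not overlap, but the lower control and the higher cadmium library differed by only 1.08-fold. The log2 fold change was -0.29 (SE 0.26). Without control 2 it was -0.16, and without control 3 it was -0.42.

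SRC behaved much like AFAP1. SRC (ENSG00000197122, chromosome 20, 37344685 to 37406050, plus strand) had normalized counts of 3598 and 2861 in the controls and 2693 and 2415 in the cadmium libraries. Control 3 was only 1.06-fold above cadmium 1. The log2 fold change was -0.34 (SE 0.28), and leaving out control 2 moved it to -0.17 and leaving out control 3 to -0.51. SRC kept 79.1% of its mean control count, a 1.26-fold lower mean beside the 3.33-fold of AFAP1L2.

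Across the whole table, the Wald test of DESeq2 with Benjamini-Hochberg adjustment called 1.14% of 19816 tested genes at an adjusted p below 0.1, 0.535% lower and 0.601% higher in cadmium. AFAP1L2 was called, which is what chose it, and AFAP1, AFAP1L1 and SRC were not. Both cadmium libraries lay below both controls for AFAP1, AFAP1L2 and SRC, as they did for 19.9% of tested genes. The AFAP1L2 call was not made by the quasi-likelihood test of edgeR or without either cadmium library, while its log2 fold change stayed between -1.77 and -1.68 under every alternative tried.

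The AFAP1 count covers only part of the gene. Of its 10017 exonic bases, 5135 were shared with exons of AFAP1-AS1 (ENSG00000272620, chromosome 4, 7754077 to 7778928, plus strand), a long noncoding RNA transcribed from the opposite strand. With a further 271 bases shared with ENSG00000228919, 54.0% of the exonic bases of AFAP1 overlapped another gene. Reads were counted without strand and dropped where they overlapped several genes, so AFAP1 was measured over at most the other 4611 bases and its RPKM is an underestimate. Over those bases alone, the AFAP1 level was 9.79 and 8.77 RPKM in the controls and 7.66 and 7.99 in the cadmium libraries. AFAP1L1, AFAP1L2 and SRC shared no exonic base with another gene.

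**Figure D2:**
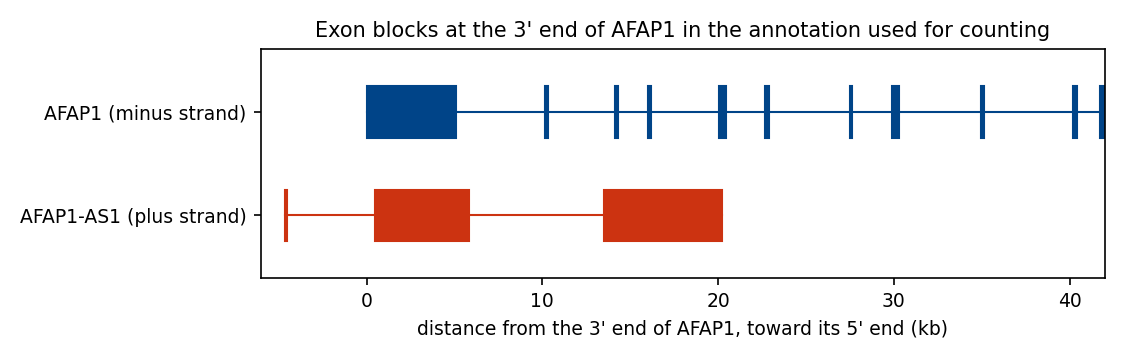
Exon blocks (boxes) of AFAP1 and AFAP1-AS1 along the first 42 kb from the 3' end of AFAP1, drawn to scale with distance in kb on the axis. The last exon of AFAP1, of 5078 bases, lies almost wholly under an exon of the antisense gene, with 4612 bases in common.

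AFAP1-AS1 itself had normalized counts of 1522 (control 2) and 5141 (control 3), beside 4520 (cadmium 1) and 4812 (cadmium 2). Control 2 stood apart, and control 3 was the highest of all. The log2 fold change was 0.49 (SE 0.51), and DESeq2 gave an adjusted p of 1.00. Adding the AFAP1-AS1 reads to AFAP1 turned the log2 fold change of AFAP1 from -0.29 to 0.21. Reads of the antisense RNA that lie in the shared exons cannot be told apart from those of AFAP1 without strand, and such reads are in neither count. ENSG00000228919 had at most 6 reads in a library.

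Levels of different genes can be compared only per length, here as RPKM, the reads per kb of exon scaled to the total of each library. In control 3 the AFAP1L2 level was 10.996, against 4.04 for AFAP1 and 2.08 for AFAP1L1. In control 2 it was 10.65, against 4.51 for AFAP1 and 7.80 for AFAP1L1. AFAP1L2 was the highest of the family in both controls, also beside the 9.79 and 8.77 of AFAP1 over unshared bases. In cadmium 1 the levels were 3.52 for AFAP1, 3.74 for AFAP1L1 and 3.41 for AFAP1L2. In cadmium 2 they were 3.68, 4.15 and 3.27 in the same order. AFAP1L2 was the lowest of the family in both cadmium libraries, but the 3 levels there lay close together. Over unshared bases AFAP1 stood clearly above the other 2 there, at 7.66 and 7.99, so the order of the family depends on the length used for AFAP1.

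The ratio of 2 genes within a library is free of the scaling between libraries. The shared exons of AFAP1 were uncounted in each library alike, so ratios with AFAP1 are compared here between libraries only. AFAP1L2 over AFAP1, per length, was 2.36 in control 2 and 2.72 in control 3, and 0.967 in cadmium 1 and 0.890 in cadmium 2. AFAP1L2 over SRC was 1.24 and 1.52 in the controls and 0.495 and 0.541 in the cadmium libraries. AFAP1 over SRC was 0.524 and 0.556 in the controls and 0.512 and 0.608 in the cadmium libraries, so its groups overlapped. The AFAP1L2 ratios to both genes were thus lower in cadmium, while AFAP1 and SRC kept a similar ratio. The AFAP1L2 ratios reuse the counts by which that gene was chosen, so they are no further support for its fall. AFAP1L1 over AFAP1 was 1.73 in control 2 and 0.515 in control 3, with the cadmium libraries between them at 1.06 and 1.13.

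**Figure D3:**
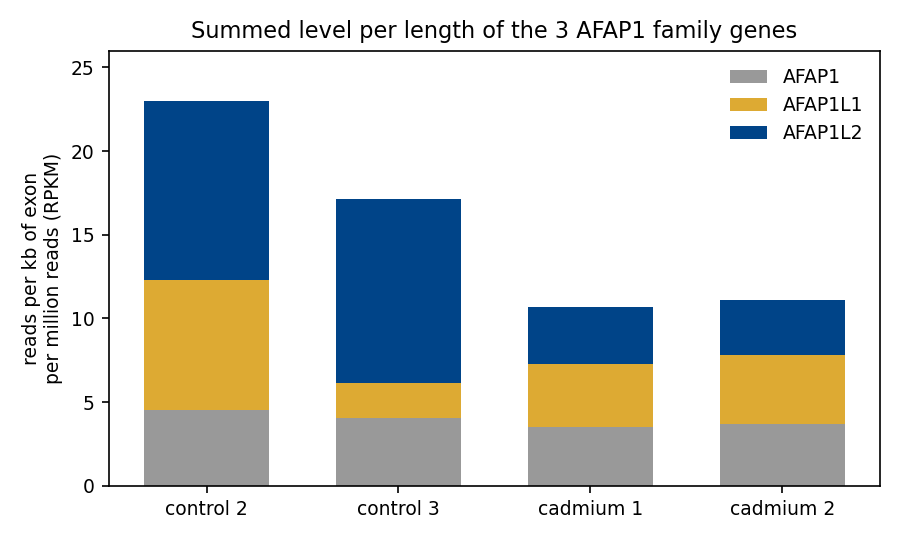
Levels of AFAP1, AFAP1L1 and AFAP1L2 stacked for each library, in RPKM (linear axis from 0). AFAP1L2 makes up 46.4% and 64.2% of the stack in the controls and 31.9% and 29.5% in the cadmium libraries. AFAP1L2 was chosen for its fall, so the lower stacks in cadmium are no further result about the family.

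The summed family level was 23.0 RPKM (control 2) and 17.1 RPKM (control 3), against 10.7 RPKM (cadmium 1) and 11.1 RPKM (cadmium 2). With AFAP1 over its full length, AFAP1L2 supplied 46.4% and 64.2% of the sum in the controls and 31.9% and 29.5% in the cadmium libraries. The sum includes AFAP1L2, the gene chosen for its fall. The lower sum and lower AFAP1L2 share in cadmium are therefore no further result about the family. The share of AFAP1L1 was 33.98% in control 2 and 12.2% in control 3, which is the main difference between the control stacks.

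ABLIM1 and ABLIM3, which encode actin-binding LIM proteins, lie beside AFAP1L2 and AFAP1L1. ABLIM3 ends 11.3 kb from AFAP1L1, and ABLIM1 ends 26.4 kb from AFAP1L2. In both places the ABLIM gene lies upstream on the same strand. ABLIM1, next to AFAP1L2, had normalized counts of 10511 and 7605 in the controls and 6718 and 6039 in the cadmium libraries. Its log2 fold change was -0.51 (SE 0.29), and the DESeq2 adjusted p was 0.813. CCDC186, on the other side of AFAP1L2, had a log2 fold change of 0.08 at a DESeq2 adjusted p of 1.00. Neither neighbour of AFAP1L2 was called.

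ABLIM3, next to AFAP1L1, had normalized counts between 3864 and 4880 in the 4 libraries. The difference between controls seen for AFAP1L1 was thus not seen for ABLIM3, nor for GRPEL2 on its other side, whose controls were at 1547 and 1516. The neighbours of SRC, MANBAL and BLCAP, had log2 fold changes of 0.12 and 0.02.

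The wider surroundings were compared through the 40 expressed genes around each member, 20 on each side. Around AFAP1L2 they had log2 fold changes with a median of 0.03 and a minimum of -1.35. None was as low as AFAP1L2, which is no further result because AFAP1L2 was chosen for its fall. The median was -0.04 around AFAP1, 0.02 around AFAP1L1 and 0.00 around SRC. The control 3 over control 2 ratio around AFAP1L1 had a median of 0.00 on the log2 scale, and 0 of the 40 genes had controls further apart than AFAP1L1. The medians of all these blocks lay near 0.

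**Figure D4:**
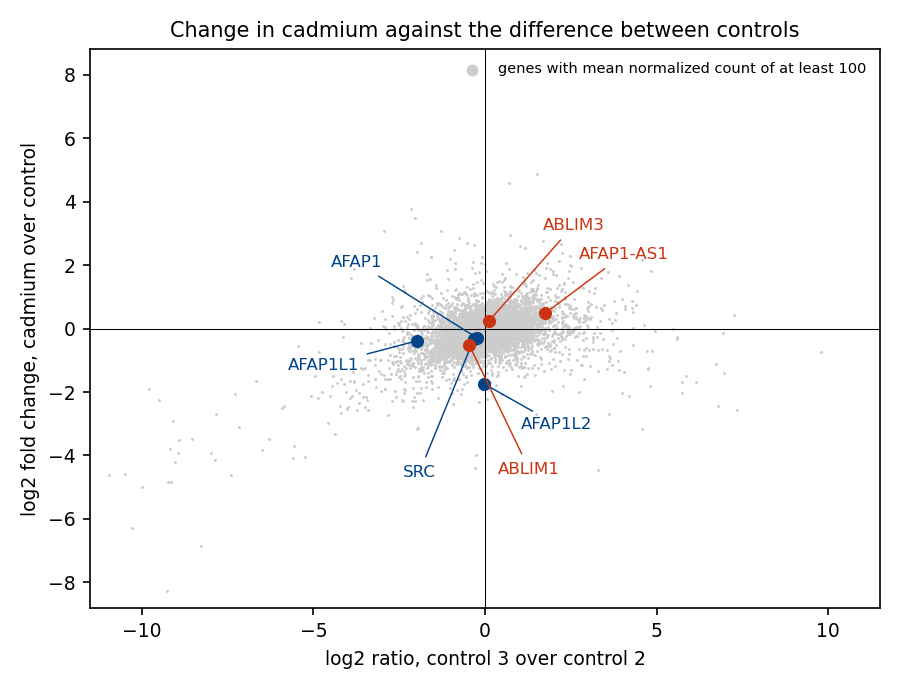
Log2 fold change in cadmium (vertical axis) against the log2 ratio of control 3 over control 2 (horizontal axis) for the 12924 genes that averaged 100 or more normalized counts (grey), with AFAP1, AFAP1L1, AFAP1L2 and SRC in blue and AFAP1-AS1, ABLIM1 and ABLIM3 in red. Both axes use the control libraries, so they are not independent. AFAP1L2 lies at -1.74 with a control ratio of -0.04, and AFAP1L1 at -0.39 with a control ratio of -1.99.

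The genes whose profile over the 4 libraries was most like AFAP1L2 were NEURL1B, PLAAT4, LTBP3, RAB42 and PSMG3-AS1. Likeness was the root mean square difference of log2(normalized count + 1), each profile centred on its mean, and it ran from 0.17 for NEURL1B to 0.21 for PSMG3-AS1. NEURL1B, a ubiquitin ligase of the Notch pathway, had normalized counts of 1575 and 1755 in the controls and 448 and 598 in the cadmium libraries. LTBP3, which binds latent TGF-beta in the matrix, had 3918 and 4941 in the controls and 1606 and 1516 in the cadmium libraries. These genes were selected for a fall in the same libraries, so their fall is no further result.

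The partners through which these adaptors act were followed in 4 lists, on SRC kinases, PI3K signalling, focal adhesions and actin. Of 94 listed genes 88 had enough reads to be tested, and DESeq2 called 0 of them in either direction, with 9 at an unadjusted p below 0.05. The quasi-likelihood test of edgeR also called 0, with 7 at an unadjusted p below 0.05. Over all tested genes the called share was 1.14%. An unadjusted p below 0.05 was given by DESeq2 to 1438 genes, beside 19816 tested. That count also covers genes under the mean count filter, so it is no exact share of those tested. With edgeR it was given to 1506 of 19241 genes. Leaving out either control gave calls in each of the 4 lists, and far more calls over all genes as well. The lone control is then assumed to vary as little as the cadmium pair, so those calls were not read as a change in the lists.

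Among the SRC kinases and their regulators, 0 of 16 tested genes were called (9 with a higher mean in cadmium, 7 lower), and the median log2 fold change was 0.11 against -0.02 over all tested genes. The most abundant were the phosphatases PTPN1, PTPRA and PTPN11, which can raise SRC activity, with log2 fold changes of -0.19, -0.01 and 0.23. PAG1, a membrane adaptor that brings the inhibitory kinase CSK to SRC kinases, had normalized counts of 932 and 2036 in the controls and 2655 and 2622 in the cadmium libraries. Its DESeq2 adjusted p was 0.680. LCK, the SRC kinase of T cells, was near the floor at 0 and 2.13 in the controls and 15.9 and 19.7 in the cadmium libraries, with a DESeq2 adjusted p of 0.420. YES1 and FYN, close relatives of SRC, had mean levels of 19.5 and 6.26 RPKM against 7.20 for SRC, and were named after their values were seen.

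Among binding partners and PI3K signalling, 0 of 16 tested genes were called, with 8 lower, 8 higher and a median log2 fold change of -0.03. CTTN, the cortactin gene, had normalized counts of 26084 and 26639 in the controls and 23836 and 23970 in the cadmium libraries, for a log2 fold change of -0.14 (SE 0.24). RAC1, a GTPase of membrane ruffles, had 30323 and 27407 in the controls and 21169 and 22170 in the cadmium libraries, and a DESeq2 adjusted p of 0.826. PIK3R3, a regulatory subunit of PI3K, had a log2 fold change of -0.43 at a DESeq2 adjusted p of 0.951. GRB2, an adaptor to RAS, had a log2 fold change of -0.08. For both CTTN and RAC1 the cadmium values lay below both controls, and neither gene was called.

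Among focal adhesion and invadopodium genes, 0 of 26 were called (9 with a higher mean in cadmium, 17 lower) and the median log2 fold change was -0.10. MMP14, the membrane protease of invadopodia, had normalized counts of 42061 and 41358 in the controls and 59864 and 60143 in the cadmium libraries. Its log2 fold change was 0.52 (SE 0.23), and DESeq2 gave an adjusted p of 0.556. For 3 of the 26 listed genes, MMP14 among them, both cadmium libraries lay above both controls. MMP14 was not called. PTK2B, a focal adhesion kinase relative, had 995 in control 2 against 195, 255 and 163 in control 3 and the cadmium libraries, with a DESeq2 adjusted p of 0.529. CAV1 and TLN1, the caveolin and talin genes, had log2 fold changes of -0.22 and 0.05.

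Among actin crosslinking and stress fibre genes, 0 of 30 tested were called (10 with a higher mean in cadmium, 20 lower) and the median log2 fold change was -0.07. LCP1, an actin bundling protein, came closest, with normalized counts of 2015 and 624 in the controls and 4208 and 3493 in the cadmium libraries and a DESeq2 adjusted p of 0.154. TAGLN2, a transgelin that binds actin, had 27631 and 25000 in the controls and 16020 and 17772 in the cadmium libraries. Its log2 fold change of -0.64 had a DESeq2 adjusted p of 0.349. ACTB, ACTG1 and FLNA, which encode actins and filamin A, had log2 fold changes of -0.34, 0.04 and -0.01.

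**Figure D5:**
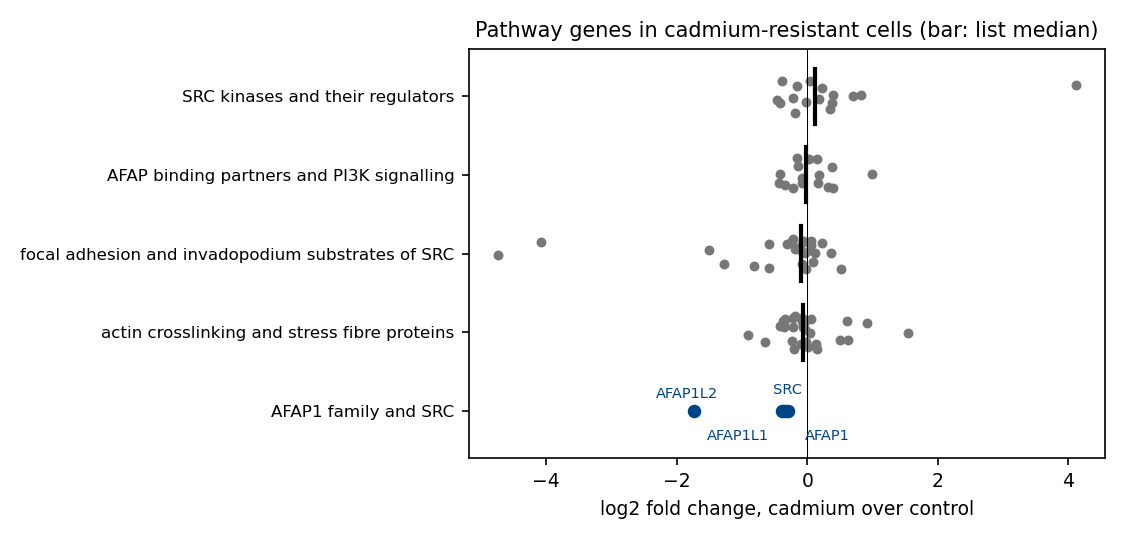
Log2 fold change of each tested gene of the 4 lists (grey points, black bar at the list median) with AFAP1, AFAP1L1, AFAP1L2 and SRC in blue on the lowest row. Most listed genes lie near 0 with medians between -0.10 and 0.11, and AFAP1L2 lies at -1.74. The farthest points of the kinase and adhesion lists are LCK, EFS and TNS1. LCK and EFS have few reads, and TNS1 has a high value in control 2 alone.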

How the data were processed

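The deposited values are raw counts of reads per gene. Per the study's methods, the file header and the submitters' processing notes, the authors trimmed adaptors, aligned reads to hg38 with HISAT2 and counted them with featureCounts 2.0.1 on an Ensembl 105 annotation with default options. Strand was ignored, reads overlapping several genes were dropped, and mates were counted separately: between 70.6% and 71.5% of the counts from 1 to 20 were even, so counting error exceeds what counts imply. The header command names the control files by letters while the columns carry numbers, so control columns were assigned to the group only.

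All 61541 genes were fitted with DESeq2 1.42.0 (group as the single term, adjusted p below 0.1; mean normalized count above 7.69). The study also used DESeq2, and these settings were chosen here. Alternatives were edgeR 4.0.16, TMM and upper-quartile factors, other filters, halved counts, a threshold of 0.05 and leaving out each library. Scripts were tested on simulated data. RPKM used the exonic lengths and count totals of the table. Symbols matched 61369 genes. The CUT&RUN and ATAC-seq data of the study were not analysed here.

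The members, gene lists and tests were chosen with earlier results of these data known. Named genes were the members, genes sharing their exons, their nearest neighbours that averaged 100 or more normalized counts, the 5 profiles most like AFAP1L2, and from each list the called genes, the 3 highest per length and the 2 lowest p-values not called. A result under this rule is not reported here.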

Additional observations from a re-analysis of the deposited data

How the results depend on the processing

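No paired analysis was possible because the numbers 2 and 3 on the control columns could not be matched to those in the labels. The 225 calls of DESeq2 (119 higher, 106 lower) became 0 (0 higher, 0 lower) with edgeR, where 1506 of 19241 genes had an unadjusted p below 0.05. With 1 library left out the calls ranged from 14 to 6189 (9 to 2678 higher, 5 to 3511 lower), fewest without a cadmium library and most without a control, because the remaining pair alone then sets the spread. The 4 lists, with 0 calls each, had 0 to 8 (SRC kinases), 0 to 4 (binding partners), 0 to 14 (focal adhesion) and 0 to 15 (actin) in those fits, and 0 under the other alternatives. Upper-quartile factors gave 152 higher and 88 lower genes and moved the AFAP1L2 log2 fold change from -1.74 to -1.68. It was -1.77 to -1.72 with 1 library left out. That of AFAP1L1 ran from -1.08 to 0.92, set by which control remained, and that of AFAP1 became 0.21 when AFAP1-AS1 reads were added. The other alternatives kept the sign of all 4 members. Each member had at least 710 reads in every library. Both groups held only 2 libraries, and a fit without 1 assumes that the lone library varies like the other group.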

Other observations

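Tensins, which link actin filaments to integrins at focal adhesions, were named after their values were seen. TNS1 had a normalized count of 2352 in control 2 against 47.8 in control 3, and 83.6 and 59.2 in the cadmium libraries. TNS4 went the other way between the controls, at 1693 in control 2 and 45283 in control 3, with 10213 and 9140 in the cadmium libraries. The controls thus differed by 48.2-fold for TNS1 and 26.7-fold for TNS4, beside 2.45-fold for TNS2, at 3521 and 8626, and 1.33-fold for TNS3. In the focal adhesion list, 6 of the 25 genes averaging 100 or more normalized counts differed more than 2-fold between the controls. These 6 include TNS1, TNS2 and TNS4, just described. Of all such genes, 14.2% differed that much. Among SRC kinases and their regulators 2 of 12 such genes did, among actin genes 4 of 28, and among the binding partners 0 of 15.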
